A study of Drosophila melanogaster with 2 samples.

Results

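The 8 Hox genes of Drosophila melanogaster lie in 2 complexes on chromosome arm 3R, and the regions called there for the CG42726-eGFP protein are described here on build dm6. The Antennapedia complex holds lab, pb, Dfd, Scr and Antp, and the bithorax complex holds Ubx, abd-A and Abd-B. The genes were chosen by name, out of 13945 protein-coding genes on 6 chromosomes. A called region belonged to a complex when its summit lay between the outermost Hox genes or within 50 kb of them. By this rule 20 of the 2752 regions that passed between the replicates were at the complexes.

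The chromatin came from whole embryos of 0 to 24 hours of a transgenic fly line that expresses CG42726 fused to eGFP, and was precipitated with an antibody against GFP before sequencing (ChIP-seq). The 2 samples are biological replicates of 1 group, so there is no comparison between conditions and no statistical test. CG42726 is an annotated protein-coding gene without a further name. Whole embryos mix cells in which a given Hox gene is on with cells in which it is off, and a called region does not tell these cells apart.

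Hox genes encode homeodomain transcription factors that give each body segment its identity, and their order on the chromosome follows the order of the segments they pattern. Each is controlled by long stretches of regulatory DNA in introns and between genes. In the bithorax complex these stretches form domains, each active from a given segment onward and separated by boundary elements, with abx/bx in the Ubx introns, bxd/pbx upstream of Ubx, and the iab domains around abd-A and on to Abd-B. Polycomb group proteins keep the genes silent where they should be off, and trithorax group proteins and the GAGA factor help keep them on. The annotation used gives no coordinates for these domains or boundaries, so regions are placed here by genes, introns and the non-coding transcripts lncRNA:bxd and lncRNA:iab8, which are transcribed from the regulatory DNA.

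The sequences that follow are the 101 bases centred on the summits of 11 regions. They are the region at lab, the sole Hox promoter in the list, and 10 of the 11 listed regions inside the complexes and outside promoters, on which the results turn. The remaining region, in Antp, touches a UTR and its sequence is not printed. The sequences are the plus strand of the RefSeq assembly of the same build, 5′ to 3′. Capitals mark matches, on either strand, to the 11 motifs searched. Those present in these sequences were GAGAG (the core of the GAGA factor site), GCCAT (the core of the Pleiohomeotic site, a Polycomb response element protein), AGGTGGCGC (part of the consensus of the boundary protein CTCF) and a run of AAAAAAA. The region between pb and Dfd holds none of the 11.
lab promoter, chr3R:6678642-6678742: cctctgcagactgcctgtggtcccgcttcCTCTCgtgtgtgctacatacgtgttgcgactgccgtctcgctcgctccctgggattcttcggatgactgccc
Between pb and Dfd, chr3R:6780213-6780313: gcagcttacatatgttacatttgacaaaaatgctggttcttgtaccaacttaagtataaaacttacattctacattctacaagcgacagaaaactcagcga
Antp intron, chr3R:6912287-6912387: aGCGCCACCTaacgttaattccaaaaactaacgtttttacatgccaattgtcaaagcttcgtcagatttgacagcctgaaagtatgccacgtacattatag
Ubx intron, chr3R:16715808-16715908: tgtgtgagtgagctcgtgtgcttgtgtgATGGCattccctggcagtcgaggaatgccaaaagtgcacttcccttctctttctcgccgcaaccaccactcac
lncRNA:bxd intron, chr3R:16748851-16748951: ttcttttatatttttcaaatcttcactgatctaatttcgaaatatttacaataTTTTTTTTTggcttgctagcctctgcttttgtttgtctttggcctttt
Between Ubx and abd-A, chr3R:16798760-16798860: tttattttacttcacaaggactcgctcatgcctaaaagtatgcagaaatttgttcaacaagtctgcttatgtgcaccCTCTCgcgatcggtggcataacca
lncRNA:iab8 intron nearest to abd-A, chr3R:16847375-16847475: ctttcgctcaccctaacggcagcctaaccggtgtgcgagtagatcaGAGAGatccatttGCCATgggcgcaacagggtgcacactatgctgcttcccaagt
lncRNA:iab8 intron, middle region, chr3R:16869383-16869483: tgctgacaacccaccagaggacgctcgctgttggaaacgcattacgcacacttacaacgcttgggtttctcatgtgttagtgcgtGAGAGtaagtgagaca
lncRNA:iab8 intron nearest to Abd-B, chr3R:16919189-16919289: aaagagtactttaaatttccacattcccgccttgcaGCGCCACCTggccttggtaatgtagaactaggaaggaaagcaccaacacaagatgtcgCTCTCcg
Abd-B intron, inner region, chr3R:16957931-16958031: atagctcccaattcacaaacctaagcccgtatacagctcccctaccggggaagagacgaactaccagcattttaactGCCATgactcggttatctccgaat
Abd-B intron, upstream region, chr3R:16969659-16969759: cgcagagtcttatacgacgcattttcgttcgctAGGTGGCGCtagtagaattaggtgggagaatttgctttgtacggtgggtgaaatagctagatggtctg

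Most regions at the complexes were away from promoters. Inside the complexes, without the added 50 kb, 2 of 13 summits lay within 500 bp of a transcription start, which is 15.4% (95% Clopper-Pearson interval 1.92 to 45.4%, counting error only). These were the promoters of lab and of bcd, a homeobox gene of the Antennapedia complex that is no Hox gene and encodes the anterior determinant of the egg. In the whole list 2188 of 2747 summits on the 6 chromosomes lay at promoters, which is 79.7% (interval 78.1 to 81.1%). In the pooled list, promoters held 3 of 8 summits inside the Antennapedia complex and 3 of 11 inside the bithorax complex, against 75.1% of the whole list. In the same order they held 2 of 4 and 2 of 7 in replicate 1, against 84.8%. In replicate 2 they held 1 of 5 and 0 of 6, against 82.4%. With the added 50 kb, 7 of 20 summits, or 35%, lay at promoters (interval 15.4 to 59.2%), since 5 of the 7 regions in the added sequence were at promoters of other genes.

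The bithorax complex held 8 regions in 315.6 kb and none of the 8 was at a promoter, which is 25.3 summits outside promoters per Mb. The Antennapedia complex held 3 such summits in 337.8 kb, or 8.88 per Mb. Over the 6 chromosomes the density was 4.18 per Mb, and on 3R it was 3.99 per Mb. In replicate 1 alone the densities were 15.8 per Mb in the bithorax complex, 5.92 in the Antennapedia complex and 3.18 over the chromosomes. In replicate 2 they were 19 and 11.8 per Mb, against 2.08. Both complexes stood above the chromosome value in both replicates and in the pooled list, where the bithorax complex had 25.3, the Antennapedia complex 14.8 and the chromosomes 7.48 per Mb. Of 100 kb bins of the chromosomes, 8.98% held at least 2 summits outside promoters, and such bins made up 3 of the 4 that cover the bithorax complex and 1 of the 4 that cover the Antennapedia complex. The highest count in a bin of the complexes was 3, and the highest in any bin was 8.

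The 2 other homeobox gene clusters examined give a scale for these densities. The NK cluster of mesodermal genes on 3R, from tin to slou, had 22.4 summits outside promoters per Mb in the same list, from 4 summits. The Iroquois complex on 3L, which holds ara, caup and mirr, had 7.72 per Mb, from 1 summit, and no summit in either replicate list. In the pooled list it had 23.2 per Mb, from 3 summits, which is above the 14.8 of the Antennapedia complex and near the 25.3 of the bithorax complex. The NK cluster had 22.4 per Mb in the pooled list too. A high density was therefore not seen at the Hox genes alone.

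**Figure D1:**
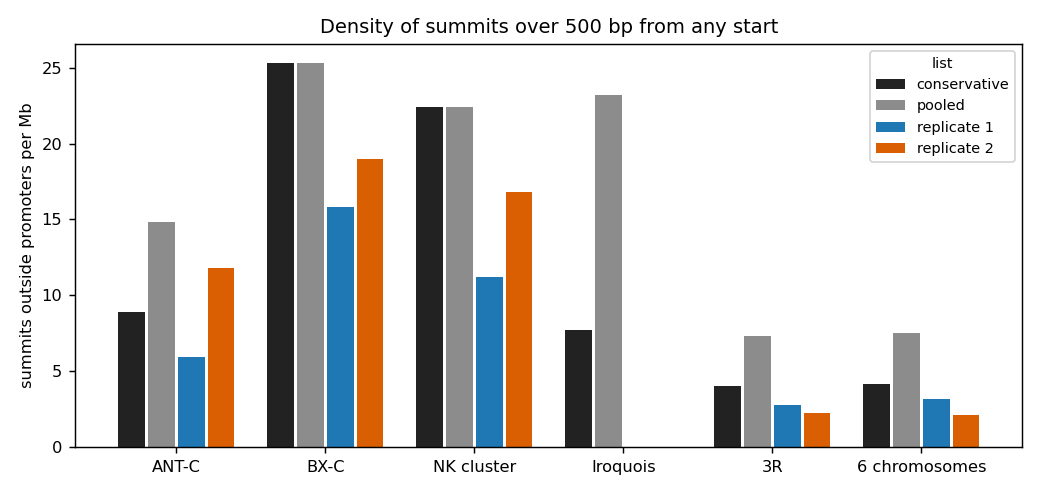
Summits more than 500 bp from any transcription start per Mb of sequence (vertical axis) in the 2 Hox complexes, the NK and Iroquois clusters, chromosome arm 3R and the 6 chromosomes, by list (bar colour). In the conservative list, which holds the regions that passed between replicates, the bithorax complex stands at 25.3 and the 6 chromosomes at 4.18 per Mb.

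The signals of the 11 regions inside the complexes and outside promoters ran from 72.4 to 131 with a median of 111. The signal is the authors' own value per region, and a rank counts from the strongest region of a list. The median was 102 over the whole list and 81.6 over its 559 regions outside promoters. Of the 11 regions, 6 were above the first of these medians and 10 above the second. Their ranks ran from 871 to 2230 of 2752, so none was among the strongest regions of the genome. The strongest region in either window was at the promoter of Sf3a1, which encodes a splicing factor subunit, 30178 bp from the nearest Abd-B start, with a signal of 272 and rank 162.

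In the Antennapedia complex, lab, the most anterior Hox gene, was the sole Hox gene with a listed summit within 1 kb of a start. That is 1 of 8 Hox genes, and 20.6% of all protein-coding genes had such a summit. The summit lay 102 bp upstream of the lab start, with a signal of 94.7 and rank 1546. Replicate 1 listed it with a signal of 47.1. In replicate 2 its signal was 43.9 and it did not pass the limit. The limit is set on the irreproducible discovery rate (IDR), the share of regions expected not to repeat between replicates or between random splits of the reads, and the lowest −log10 IDR in each list was 2. The lab region had 1.72 in replicate 2.

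The gene pb, which patterns the mouthparts, had no region in the list. An intronic region in its body, with the summit at 6709021, was in the pooled list with a signal of 75.6 and in the list of replicate 2 with 60.4. Its signal in replicate 1 was 21.1, below the limit. Between pb and Dfd the bcd promoter held a region 223 bp upstream of the start, with a signal of 124 and rank 985. Both replicates listed it, with 51.3 in replicate 1 and 73.7 in replicate 2. A fixed list held 5 of the other genes of the Antennapedia complex (bcd, zen, zen2, ftz and Ama). Only bcd among them had a listed summit within 1 kb of a start, in each of the 4 lists. Of all protein-coding genes, 20.6% had one in the conservative list and 27.3% in the pooled list. The shares were 21.9% in replicate 1 and 12.7% in replicate 2, so 1 of 5 does not set this group apart.

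Dfd, which specifies the mandibular and maxillary segments, had a region at its promoter in the pooled list, 159 bp upstream of the start, with a signal of 51.7. Its −log10 IDR was 2.06 there and 1.91 between the replicates, just inside and just outside the limit. A stronger region lay in the intergenic DNA 11573 bp upstream of Dfd, with the summit at 6780263 and a signal of 87.7. Replicate 2 listed it with 46.1, and it missed the limit in replicate 1 with 41.5.

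Scr patterns the labial and anterior thoracic segments. No ranked region of any strength lay within 1 kb of its 2 starts between the replicates, in the pooled reads or in replicate 2, and in replicate 1 a ranked region 100 bp from a start had a signal of 22.5 and a −log10 IDR of 0.601. The Scr body held 7.45 ranked regions per 10 kb between the replicates, and the other 7 Hox genes held 12 to 14, with 10.3 over the 6 chromosomes. In replicate 1 this order did not hold, with 8.93 per 10 kb in Scr, 8.17 in pb, 8.5 in Dfd and 8.73 over the 6 chromosomes. The widest stretch of the window without a listed summit, 128 kb from 6780263 to 6908264, holds Dfd, Scr and ftz.

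In that stretch 3 ranked regions passed the IDR limit between the replicates and are not in the thresholded list. They lie beyond the Scr 3′ end, beside or in the 4 tRNA:Lys-TTT genes between Dfd and Scr. The summit at 6819379 had a signal of 148 and a −log10 IDR of 3.29, and the summit at 6819904, in tRNA:Lys-TTT-2-1, had 139 and 3.31. The summit at 6823031, in tRNA:Lys-TTT-2-4 and 89 bp beyond the Scr end, had 85.2 and 2.4. Signals of 148 and 139 exceed every listed signal of the Antennapedia window, and the former would have had rank 678. Both of the stronger regions also passed in each replicate, with 80.1 and 80.9 in replicate 1 and 62.2 for both in replicate 2, and the replicate lists leave them out too. In all, 142 regions at the limit are missing from the list, and 6 of them, with the 3 beside Scr included, lie within 1 kb of a tRNA gene. The share of listed regions that lie so near a tRNA gene was not computed, so 6 of 142 cannot be called many or few. None of the 4 tRNA genes beside Scr has a listed summit within 1 kb, while 178 of the 290 tRNA genes on the 6 chromosomes, or 61.4%, do. Per the deposited file records the lists have another parent file, whose effect the records leave unstated. Copies of a tRNA gene can be near identical, and how reads matching several copies were placed is not stated, so the signals at these genes are uncertain.

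**Figure D2:**
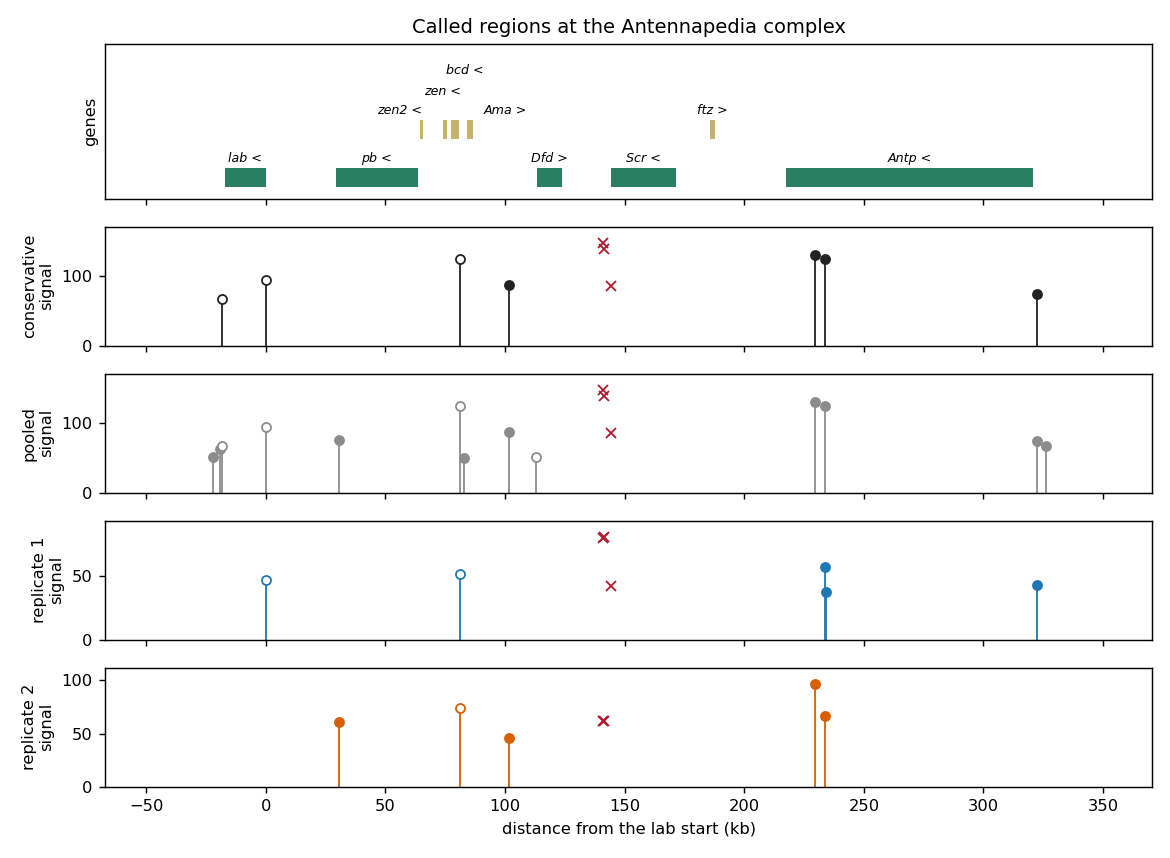
Map of the Antennapedia complex with 50 kb added, with genes on top (green for Hox, tan for others, arrowheads for strand) and below it the authors' signal of each listed summit in the conservative, pooled and replicate lists against distance from the lab start in kb. Open circles are promoters, filled circles other places, and crosses the regions at the IDR limit that the lists leave out, which reach 148 beside Scr in the top list.

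Antp, which directs development of the thorax and legs, held 2 regions in its body of 103 kb and none within 1 kb of its 3 starts. Both summits also lay within a second annotated gene, CG46458. The summit at 6912337 lay in an intron of all 12 annotated Antp transcripts, 20503 bp inside the nearest start, and its sequence is the Antp intron line above. Its signal was 125, with 56.8 in replicate 1 and 66.5 in replicate 2, and the summits of the replicates were 7 bp apart. The summit at 6908264 had the highest listed signal of the Antennapedia window, 131. It lay in an intron of 11 Antp transcripts and in a 3′ UTR exon of the remaining transcript. The replicates differed there, with a signal of 96.8 and rank 223 in replicate 2 and a signal of 38 in replicate 1, where the −log10 IDR of 1.33 missed the limit. A further region lay 1849 bp upstream of the Antp start, in an exon of lncRNA:CR45899, with a signal of 74.7 in the list, 43.2 in replicate 1 and 28.7 in replicate 2, where it did not pass. The Antp starts themselves had no ranked region above 36.6.

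Ubx, which sets the identity of the posterior thorax and the haltere, held 1 region in its body. The summit at 16715858 lay in an intron of all 6 transcripts, 18568 bp downstream of the start, and was the strongest region of the bithorax complex without its flanks, with a signal of 129 and rank 901. Here replicate 1 was the higher, with a signal of 92.2, and replicate 2 had 39.3 and missed the limit with a −log10 IDR of 1.61. The order of the replicates was thus the reverse of that at 6908264 in Antp. Just beyond the Ubx 3′ end, a region at 16656387 had a signal of 108, with 65.8 in replicate 1 and 44.7 in replicate 2, where it did not pass. The start nearest to this region was that of modSP, with the summit 725 bp upstream of it, and the Ubx start was 78039 bp away. The Ubx promoter had a region 30 bp downstream of the start in the pooled list, with 65.3, and in replicate 1, with 58.6. In replicate 2 its signal was 21, and its −log10 IDR between the replicates was 1.24.

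Upstream of Ubx, where the bxd/pbx regulatory DNA lies, a summit at 16748901 fell in an intron of lncRNA:bxd, 14475 bp from the Ubx start. With a signal of 72.4 it was the weakest of the 11 regions and the sole region of the 13 inside the complexes that neither replicate listed, with 36.5 and 34.5 in replicates 1 and 2. A summit at 16798810, in the intergenic DNA between lncRNA:bxd and abd-A, had a signal of 125. The replicates had nearly the same signal there, 61.6 and 61.2, and both listed it.

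The gene abd-A, which patterns the anterior abdomen, had no listed summit in its body. Its promoter resembled that of Ubx, with a region 165 bp upstream of the start in the pooled list (70.8) and in replicate 1 (51.9), and a signal of 20.1 in replicate 2. Between abd-A and Abd-B lay 3 summits, all in introns of lncRNA:iab8, whose body of 92.1 kb spans most of that interval. The summits at 16847425 and 16869433 also lay within a second annotated gene, MSAmiP. The summit at 16847425 had a signal of 113, with 66.8 in replicate 2 and, missing the limit with a −log10 IDR of 1.93, 47.2 in replicate 1. The summit at 16869433 had a signal of 99.2, with 55.1 and 57.6 in replicates 1 and 2, and the summit at 16919239 had 111, with 63.7 and 50.5. Both replicates listed the last 2. The precursors of the microRNAs mir-iab-4 and mir-iab-8, which repress Hox messages, lie on opposite strands of 1 locus in this interval, 8850 bp from the nearest of these summits.

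Abd-B, which patterns the posterior abdomen and the genitalia, held 2 regions in its body. The summit at 16957981, 2300 bp inside the nearest of its 6 starts, had a signal of 102, with 42.1 in replicate 1 and 62.4 in replicate 2, and both replicates listed it. The summit at 16969709, 1135 bp upstream of the nearest start and in an intron of a longer transcript, had 98, with 65.1 in replicate 2 and 36.7 in replicate 1, where it did not pass. The promoter region 48 bp downstream of an Abd-B start was in the pooled list alone, with 71.5.

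**Figure D3:**
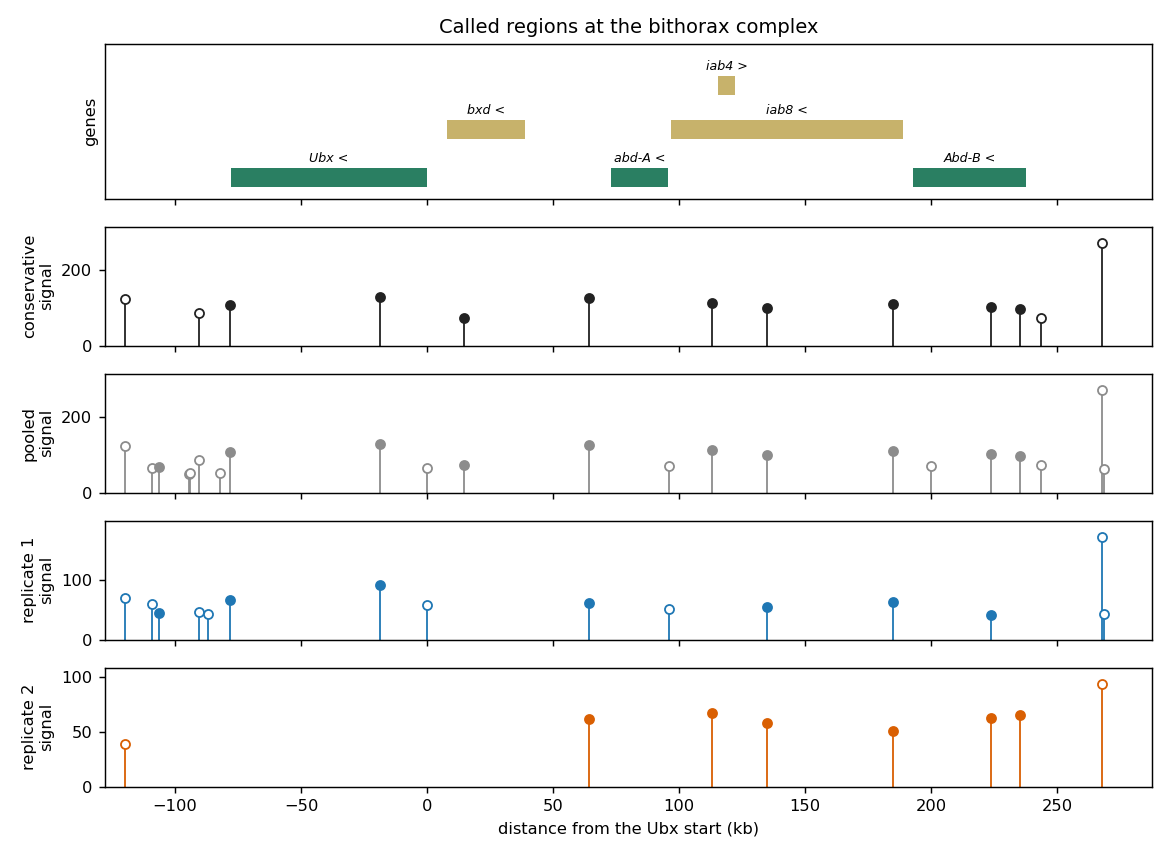
Map of the bithorax complex with 50 kb added, drawn as for the Antennapedia complex, with the authors' signal of each listed summit against distance from the Ubx start in kb. In the conservative list (top) the 8 summits from Ubx to Abd-B are all filled, which marks places outside promoters, and the tallest, at 272, is the Sf3a1 promoter outside the complex.

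The promoters of the Hox genes thus depended on the list. Within 1 kb of a start, 1 of 8 genes had a summit between the replicates and 5 of 8 in the pooled list (lab, Dfd, Ubx, abd-A and Abd-B), where the share of all genes was 27.3%. In replicate 1 there were 3 of 8 (lab, Ubx and abd-A), with 21.9% of all genes, and in replicate 2 there were 0 of 8, with 12.7%. For the gene bodies the count was 3 of 8 between the replicates (Antp, Ubx and Abd-B), where the share was 9.03% of all protein-coding genes. Long genes hold more summits, and 6 of the Hox genes are at least 20 kb long. Of these 6, 3 held a summit, against 32.5% of the 1013 genes of that length. In the pooled list 4 of 8 bodies held a summit, all among the 6 long genes, against 13.9% of all genes and 43.5% of the long genes.

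**Figure D4:**
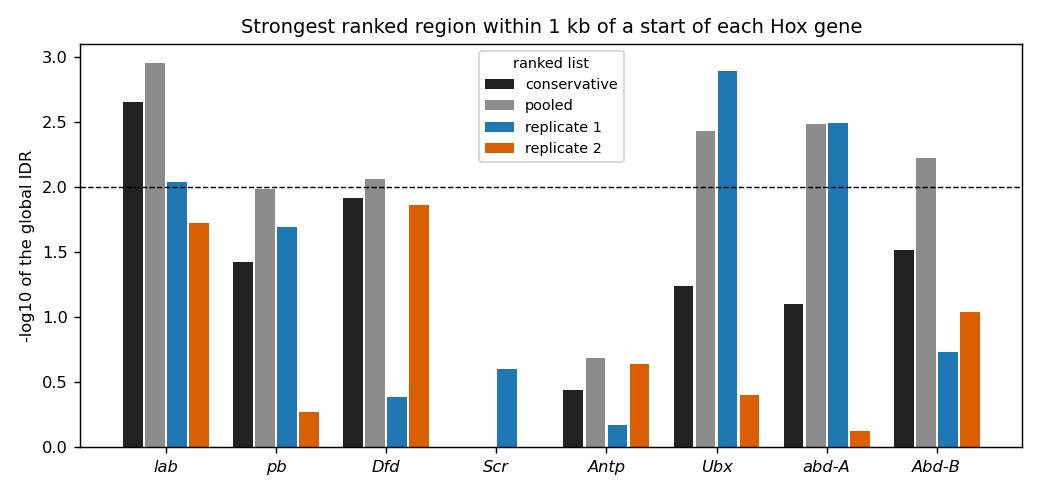
The −log10 of the global IDR (vertical axis) of the ranked region of highest signal within 1 kb of any start of each Hox gene, by ranked list (bar colour), with the limit of 2 dashed and no bar where no region was ranked. Only lab passes between the replicates. In the pooled reads lab, Dfd, Ubx, abd-A and Abd-B pass, and in replicate 1 lab, Ubx and abd-A pass. Scr has a bar in replicate 1 alone.

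Of the 13 regions inside the complexes, replicate 1 listed 8, replicate 2 listed 10 and both listed 6. Where both listed a region, their summits were 7 to 46 bp apart, with a median of 20.5 bp. Replicate 2 had the shorter list in all, with 1629 regions against 2803. Of the 11 regions outside promoters, replicate 2 listed 9 and replicate 1 listed 6. The shares of the whole conservative list, and of its regions outside promoters, that each replicate listed were not computed. Whether these counts are particular to the complexes was therefore not tested. The scaling of the signal between the replicates is not given in the sources used here, so signals are set side by side and no ratio is drawn.

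**Figure D5:**
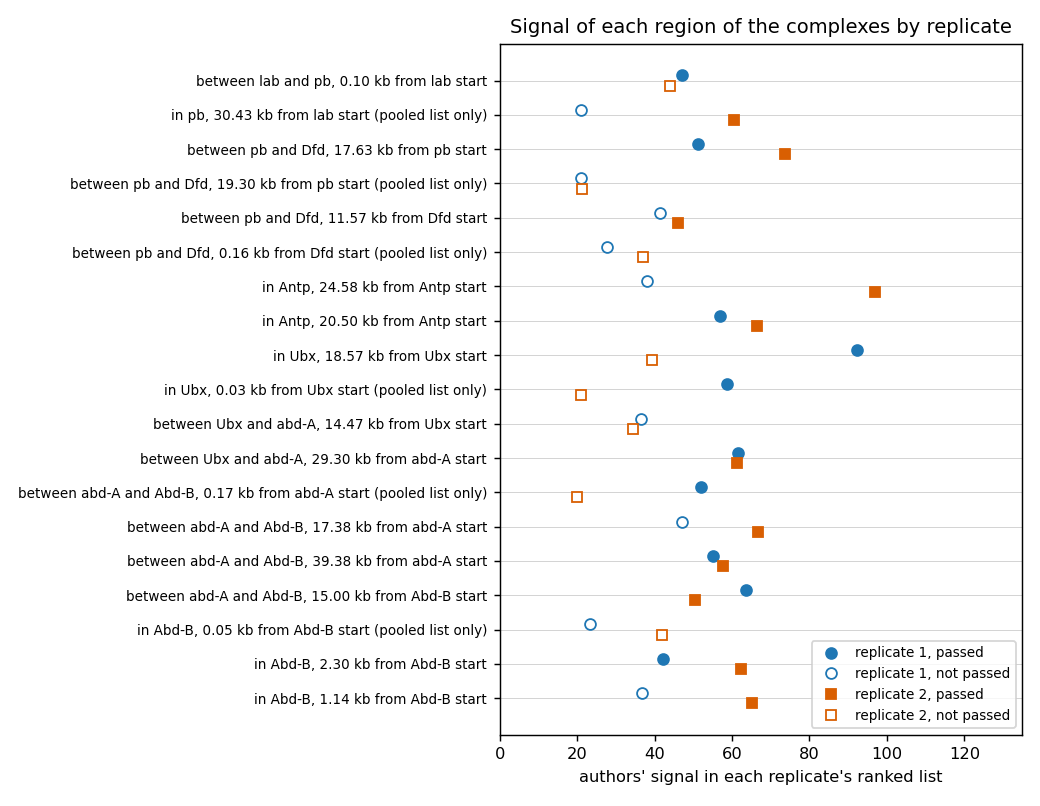
The authors' signal of each region inside the complexes in the ranked list of replicate 1 (blue circles) and of replicate 2 (orange squares), with filled symbols where that replicate's list held the region and open symbols where it did not. The regions are in order along the chromosome, and the widest contrasts are the first of the 2 Antp regions (38 and 96.8) and the Ubx intron (92.2 and 39.3).

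The sequences at the 11 regions outside promoters were compared with all 559 listed regions outside promoters, in the 101 bases around each summit. GAGAG was present in 4 of the 11, or 36.4%, and in 16.6% of the 559. GCCAT was present in 3 of the 11, or 27.3%, and in 27.9%. The longer motif TATCGATA of the promoter factor DREF, and its part CGATA, were in none of the 11. They were in 1.79% and 14.1% of the 559, and in 12.6% and 42.6% of all 2747 regions, most of which are promoters. TAATTA, a homeodomain core, was in none of the 11 and in 3.04% of the 559. TTTATGGC, CAGGTA, GGTCACAC and CACACACA were in none of the 11 either, and a run of AAAAAAA was in 1, the lncRNA:bxd region. With 100 bp to either side of the summit in place of 50, several of these counts rose. GAGAG was then in 6 of the 11 and 28.1% of the 559, and GCCAT in 5 and 44.2%. CGATA was in 2 of the 11 and 24.2% of the 559. TAATTA was in 1 of the 11 and 7.16% of the 559. CAGGTA was in 1 and 4.29%, and CACACACA in 1 and 7.33%. The median GC content in the shorter window was 47.5% for the 11 and 48.5% for the 559.

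AGGTGGCGC was searched after the sequences had been read. It was present at 3 of the 11 regions, or 27.3%, namely the Antp intron, the lncRNA:iab8 intron nearest to Abd-B and the upstream Abd-B intron, where it appears above as AGGTGGCGC or as its reverse complement GCGCCACCT. It was present in 22 of the 559 regions, or 3.94%, and in 1.38% of all 2747. A match to these letters is a description of the sequence and not a binding site, and the choice of the motif from these very regions means that the counts are no independent evidence.

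The genes that work with Hox proteins and under them were read from lists of textbook members. Of the 2 cofactors, hth, which brings the cofactor Exd into the nucleus, had a start within 1 kb of a summit, with a signal of 95.6. Replicate 2 listed a region there with 62. In replicate 1 the strongest ranked region there had 40.9 and missed the limit with a −log10 IDR of 1.79. The gene exd had a summit only in the pooled list (73.1) and in replicate 1 (48.8). Of 9 known Hox targets, 4 had a start within 1 kb of a summit, against the 20.6% of all genes. They were the leg gene Dll with 85.4, the trunk gene tsh with 70, the tracheal and sensory gene salm with 90.3 and Con, which encodes an adhesion protein, with 83.5. The other 5 (dpp, wg, fkh, rpr and ss) had none, although replicate 1 listed regions at dpp, with 47.6, and at the cell death gene rpr, with 72.5. In replicate 2 none of the 9 targets had a listed summit within 1 kb of a start, against the 12.7% of all genes.

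The pattern of Antp, 2 listed summits in the body, was shared by 126 protein-coding genes. Among the Hox genes Abd-B, of 45 kb, had 2 as well, both outside promoters, and replicate 1 listed 1 summit and replicate 2 listed 2 in its body. The 3 nearest to Antp in length were Eip63E, a cyclin-dependent kinase gene of 94.8 kb, Tet, which encodes an enzyme that oxidises methylated bases, of 93 kb, and CG44837 of 88.2 kb. Both Antp summits lay outside promoters, while Eip63E had 0 such summits and Tet and CG44837 had 1 each. The signals were 131 and 125 in Antp, 207 and 79.7 in Tet, 74.5 and 69 in CG44837, and 68.4 and 12 in Eip63E. Each replicate listed 2 summits in the Antp body, but only the region at 6912337 was listed by both. Replicate 2 also listed the region at 6908264. Replicate 1 instead listed a region at 6912953, with a signal of 37.2, that was in no other list. In Eip63E, Tet and CG44837 neither replicate listed more than 1.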

How the data were processed

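The 2 ChIP-seq samples are called biological replicates, and the labels say no more about separate collections. Sonicated chromatin had sizes of 200 to 800, per the labels, which give no unit. Regions were called on build dm6 against a control, per the deposited file records; the control was not analysed here. Neither aligner nor peak caller is given in the sources used here. Each region has a signal, the authors' deposited value, and each ranked region a deposited −log10 of the global IDR. The conservative list holds the regions that passed an IDR of 0.01 between the replicates and is the list meant where none is named. The pooled list comes from both replicates' reads together, and all 20 regions at the complexes had the same signal in both. No file gives counts, so sequencing depth is unknown.

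Genes were taken from Ensembl release 115 of the same assembly without transposable elements, and sequence from RefSeq, with chromosome lengths checked. A promoter is 500 bp to either side of any start. Summit positions were used throughout. Intervals are exact Clopper-Pearson 95% intervals. Python 3.11.15, NumPy 2.4.6, SciPy 1.17.1 and Matplotlib 3.10.9 were used, and the functions were tested on simulated data. The 8 Hox genes are named whatever their values, as are all members of the gene lists with a listed summit. The genes set beside Antp are the 3 nearest in length with as many summits in the body, and Abd-B, the other Hox gene with that count. The members, lists and motifs were chosen with earlier results of these data known, and the tRNA genes beside Scr and the motif AGGTGGCGC were taken up after values were seen. The alternatives tried were the pooled list, each replicate alone, signals above the median, other windows and distances, and 100 bp to either side of summits for motifs.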

Additional observations from a re-analysis of the deposited data

How the results depend on the processing

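The count of summits in the Antennapedia window, 7, was 13 in the pooled list, 3 with signals above the median and 4 outside promoters, an alternative chosen after seeing the data. The count in the bithorax window, 13, was 22 in the pooled list, 7 with signals above the median and 8 without the added 50 kb, and it ranged from 8 without replicate 1 to 15 without replicate 2. The count of Hox genes with a summit within 1 kb of a start, 1, was 5 in the pooled list, 0 with signals above the median, 3 within 2 kb and 2 where any base of the region counted, and it ranged from 0 without replicate 1 to 3 without replicate 2. The promoter share of the windows, 35%, was 15.4% without the added 50 kb and ranged from 23.1% without replicate 1 to 50% without replicate 2. The count of Hox gene bodies with a summit was 3, and it ranged from 2 with signals above the median to 4 in the pooled list and where any base of the region counted. The cause of these differences was not tested beyond what each alternative leaves out or adds. No paired analysis was possible because the series has 1 group and no test. Values per region carry no error of their own, and the unknown depth limits what a region missing from a list can show.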
